A study of Caenorhabditis elegans with 6 samples.

Results

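The epidermal growth factor (EGF) receptor and Ras pathway of the nematode Caenorhabditis elegans was examined here together with its inhibitor gene ark-1, across 10 genes of 17118 named on the array. They were lin-3, let-23, ark-1, sem-5, sos-1, let-60, lin-45, mek-2, mpk-1 and lin-1. The genes were chosen by their place in this pathway, with the mutant and N2 intensities of these arrays already known, so their differences between the genotypes are given as a description and carry no test. Every probe set annotated with a single gene symbol from this list was taken, which gave 17 of 22548 probe sets, with 2 each for 7 genes and 1 each for lin-3, let-23 and sem-5. One further probe set named lin-1 together with another gene and was not a member.

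Whole-genome expression was measured in a mutant of ung-1 and in wild type N2, the standard laboratory strain of the worm, with 3 Affymetrix arrays for each genotype. Its product, the uracil-DNA glycosylase UNG-1, cuts uracil out of DNA as the opening step of base excision repair. The labels gave no allele, age, stage, tissue, growth condition or damaging treatment, and the design text wrote of RNAi mutants where the samples were called a mutant. The replicates were called biological, with nothing said of separate cultures.

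Signalling through the EGF receptor turns a secreted ligand into a change of transcription. The ligand LIN-3 binds the receptor tyrosine kinase LET-23, the adaptor SEM-5 and the exchange factor SOS-1 then load the Ras protein LET-60 with GTP, and Ras sets off the kinases LIN-45 (Raf), MEK-2 and MPK-1 (ERK), whose nuclear substrates include the ETS factor LIN-1. In the worm this chain is known for inducing the vulva, and MPK-1 also acts in the germline, where it promotes meiotic progression and oocyte maturation. ARK-1 is a non-receptor tyrosine kinase related to Ack that binds SEM-5 and restrains LET-23 signalling.

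Levels are given as intensities of probe sets, in arbitrary units, and ± is the SD over 3 arrays. Fold changes are log2 differences, mutant minus N2, of intensity + 16 from the limma fit of all probe sets, with 95% confidence intervals for single probe sets that are not adjusted for their number. How far a dim probe set lay above background is unknown, and a different intensity on different probe sets says nothing about which transcript was more abundant. In RNA of whole samples, fewer cells of a type and less RNA per cell cannot be told apart.

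The ung-1 probe set itself gave 54.87, 55.33 and 47.67 in mutant replicates 1, 2 and 3, against 235.93, 254.14 and 295.57 in N2 replicates 1, 2 and 3. The labels and this gene thus went the same way on every array (log2 fold change -2.01, limma adjusted p = 0.0765 over all probe sets). Array medians ran from 152.82 to 160.985 in the mutant and from 158.315 to 167.85 in N2, and the correlation of log2 values between arrays, over probe sets that are no independent replicates, was 0.924 at the lowest and 0.9751 at the highest. For sperm markers, mutant replicate 3 (-0.60) and N2 replicate 1 (-0.47) had the lowest medians of centred log2 values, and the rest of the arrays lay at 0.042 to 0.51. Mutant replicate 3 was also the lowest array for oocyte and germline markers (-0.58) and for yolk and intestine markers (-0.61). N2 replicate 1 was not low there (0.10 and 0.13). With mutant replicate 3 and N2 replicate 1 both left out, the sign turned for 7 of the 17 member probe sets, all of them within 0.05 of 0 before. Those values are given with each gene.

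On 1 of its 2 probe sets, the inhibitor gene ark-1 was lower on every mutant array than on any N2 array, and on the other its arrays overlapped. The kinase genes mek-2 and mpk-1 showed the same split, with 1 probe set whose groups lay apart and 1 whose groups overlapped. For the ligand, the receptor, the adaptor, the exchange factor, Ras, Raf and lin-1 the arrays of the genotypes overlapped on every probe set. In all, 3 of the 17 probe sets had all mutant arrays below all N2 arrays and 0 had them above, where 4.38% of all probe sets on the array lay apart in the lower direction and 6.69% in either direction. Limma called 0% of all probe sets at an adjusted p of 0.05, so no member passed. The unadjusted p was under 0.05 for 435 of the 22548.

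**Figure D1:**
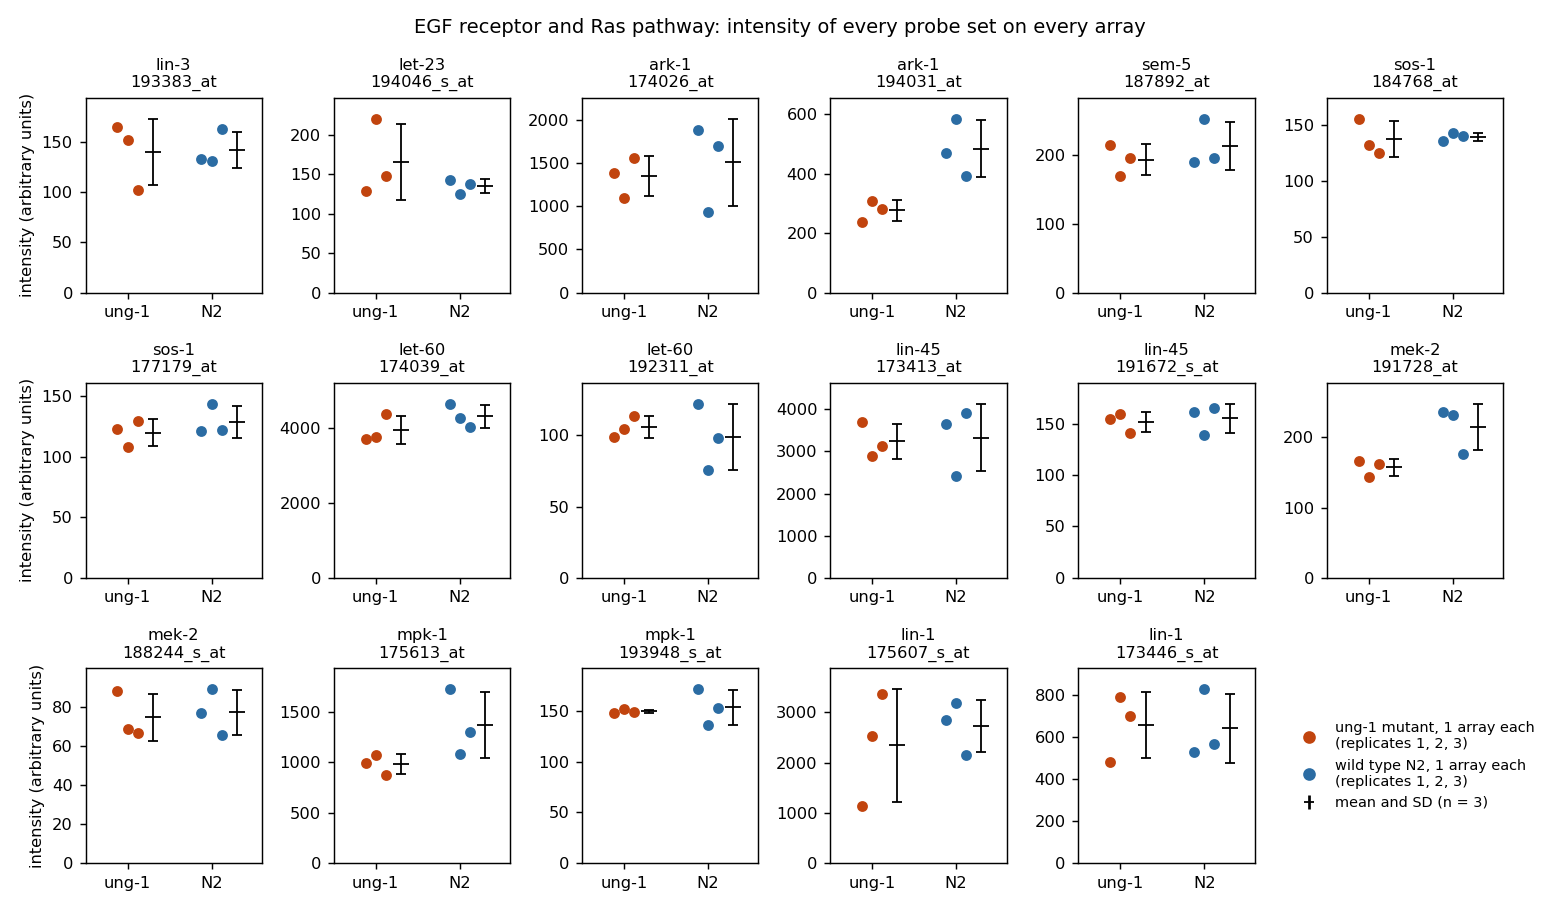
Intensity in arbitrary units (vertical axes from 0, a separate scale in each panel) of the 17 member probe sets on each of the 3 ung-1 mutant and 3 N2 arrays, in the order of replicates 1, 2 and 3, with the mean and SD of each group beside the points. The mutant points lie below every N2 point for ark-1 on 194031_at (238.76 to 309.97 against 394.02 to 584.93), mek-2 on 191728_at and mpk-1 on 175613_at, and overlap them in the other 14 panels.

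The lin-3 probe set, for the EGF-like ligand that the anchor cell sends to the vulval precursor cells, gave 164.61, 152.02 and 102.01 in mutant replicates 1, 2 and 3. In N2 replicates 1, 2 and 3 it gave 132.88, 130.25 and 162.21. The highest and the lowest of these 6 values both came from the mutant, and the groups overlapped. The log2 fold change was -0.039 (95% interval -0.52 to 0.45). It was 0.15 without mutant replicate 3, the lowest array, and 0.11 with N2 replicate 1 left out as well.

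For let-23, the EGF receptor gene, the probe set 194046_s_at gave 128.37, 220.19 and 147.32 in mutant replicates 1, 2 and 3, against 142.73, 124.78 and 137.51 in N2 replicates 1, 2 and 3. Mutant replicate 2 was the highest array, and the remaining 5 arrays lay between 124.78 and 147.32. The log2 fold change of 0.23 (-0.26 to 0.73) was the highest among the members, and leaving out mutant replicate 2 gave 0.026, leaving out mutant replicate 1 0.38. On the log2 scale the SD over replicates was 0.37 in the mutant and 0.089 in N2.

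The ark-1 probe set 194031_at gave 238.76, 309.97 and 282.93 in mutant replicates 1, 2 and 3. In N2 replicates 1, 2 and 3 it gave 471.39, 584.93 and 394.02. All mutant arrays lay below all N2 arrays, with a gap from 309.97 to 394.02 between the nearest arrays. Mutant arrays averaged 277 ± 35.9 and N2 arrays 483 ± 96.0, which makes the mutant level 0.573 of that in N2. The log2 fold change of -0.76 (SE 0.19, 95% interval -1.22 to -0.30) was the lowest among the 17. Leaving out 1 array at a time gave -0.89 to -0.62, and leaving out mutant replicate 3 and N2 replicate 1 together gave -0.78. After quantile normalization it was -0.77 and after median centring -0.72, with the groups apart under both.

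The other ark-1 probe set, 174026_at, gave 1383.53, 1096.08 and 1558.48 in mutant replicates 1, 2 and 3, against 1885.22, 934.52 and 1699.48 in N2 replicates 1, 2 and 3. The lowest and the highest arrays were both N2, so that all mutant values lay inside the N2 range. The means were 1346 ± 233 in the mutant and 1506 ± 504 in N2, and the log2 fold change was -0.11 (95% interval -0.80 to 0.58). That value had no stable sign, since leaving out N2 replicate 1 gave 0.078, leaving out mutant replicate 2 gave 0.026 and leaving out N2 replicate 3 gave 0.0042. Leaving out N2 replicate 2, the lowest array, gave -0.42. With array weights it was -0.49. These weights were highest for N2 replicate 1, at 3.52, and lowest for N2 replicate 2, at 0.459, and mutant replicate 3, at 0.473.

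Both ark-1 probe sets can be set against each other within an array. The log2 ratio of 174026_at to 194031_at was 2.46, 1.77 and 2.40 in mutant replicates 1, 2 and 3, and 1.96, 0.66 and 2.06 in N2 replicates 1, 2 and 3. Mean ratios were 2.21 ± 0.38 in the mutant and 1.56 ± 0.78 in N2. The ratios overlapped between the genotypes, with N2 replicate 2 the lowest. Which part of the transcript each probe set covers was not used here.

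The adaptor gene sem-5, which encodes the Grb2 homologue that ties the receptor to SOS-1, gave 213.35, 169.08 and 195.45 in mutant replicates 1, 2 and 3. It gave 188.88, 252.05 and 195.49 in N2 replicates 1, 2 and 3. The arrays overlapped, and the log2 fold change was -0.12 (-0.53 to 0.28). With 1 array left out it ran from -0.20 to -0.0023, the last without N2 replicate 2, the highest array.

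For sos-1, the Ras exchange factor gene, the probe set 184768_at gave 155.15, 131.70 and 124.22 in mutant replicates 1, 2 and 3 and 135.51, 142.18 and 139.45 in N2 replicates 1, 2 and 3. The N2 arrays lay inside the mutant range. On 177179_at the mutant had 122.70, 108.16 and 129.42, against 121.11, 143.82 and 121.84 in N2. The log2 fold changes were -0.024 (-0.36 to 0.32) and -0.090 (-0.44 to 0.26), and both intervals leave out a halving or a doubling, which would be -1 or 1 on this scale. Without mutant replicate 3 and N2 replicate 1 the value on 184768_at was 0.020.

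The Ras gene let-60 gave 3709.72, 3765.75 and 4385.11 on 174039_at in mutant replicates 1, 2 and 3, against 4655.28, 4282.27 and 4029.02 in N2 replicates 1, 2 and 3. Mutant replicate 3 alone reached into the N2 range. Here the log2 fold change was -0.13 (-0.48 to 0.22). The dimmer probe set 192311_at gave 98.86, 104.32 and 114.02 in the mutant and 122.17, 75.81 and 98.25 in N2, with a log2 fold change of 0.10 (-0.34 to 0.54). The probe sets of let-60 thus had opposite signs, each with an interval that contains 0.

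The Raf gene lin-45, for the first kinase of the cascade, gave 3691.91, 2894.40 and 3138.15 on 173413_at in mutant replicates 1, 2 and 3. In N2 replicates 1, 2 and 3 it gave 3661.07, 2418.61 and 3910.77, a range that contains all mutant values. On 191672_s_at the mutant had 154.55, 160.04 and 141.40 and N2 had 161.68, 139.55 and 165.35. With log2 fold changes of -0.016 (-0.54 to 0.51) and -0.028 (-0.37 to 0.31), neither lin-45 probe set differed beyond the spread of its arrays. Without mutant replicate 3 and N2 replicate 1 the values were 0.087 and 0.045.

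The gene mek-2, for the kinase that phosphorylates MPK-1, gave 166.93, 143.17 and 161.83 on 191728_at in mutant replicates 1, 2 and 3, against 235.94, 231.46 and 176.71 in N2 replicates 1, 2 and 3. The groups lay apart, with the highest mutant array at 166.93 and the lowest N2 array at 176.71. The means were 157 ± 12.5 in the mutant and 215 ± 32.98 in N2, and the log2 fold change was -0.40 (SE 0.17, 95% interval -0.80 to -0.013). It ran from -0.53 to -0.34 with 1 array left out and was -0.36 without mutant replicate 3 and N2 replicate 1 together. On the dimmer probe set 188244_s_at the mutant gave 88.11, 68.50 and 66.61 and N2 gave 76.54, 88.95 and 65.70. Here the arrays overlapped, with a log2 fold change of -0.042 (-0.45 to 0.36), or 0.019 without the same pair of arrays.

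The ERK gene mpk-1, for the kinase at the end of the cascade, gave 993.28, 1069.27 and 873.38 on 175613_at in mutant replicates 1, 2 and 3, against 1724.70, 1077.07 and 1303.12 in N2 replicates 1, 2 and 3. The groups lay apart by the step from 1069.27 in mutant replicate 2 to 1077.07 in N2 replicate 2. The means were 979 ± 98.8 in the mutant and 1368 ± 329 in N2, with a log2 fold change of -0.46 (SE 0.21, 95% interval -0.94 to 0.033). The value was -0.28 without N2 replicate 1, the highest array, and -0.20 without that array and mutant replicate 3 together. On the dimmer probe set 193948_s_at the mutant had 148.41, 151.97 and 149.32, and N2 had 171.98, 136.77 and 152.76. All mutant values lay inside the N2 range there (log2 fold change -0.029, -0.37 to 0.31, or 0.050 without N2 replicate 1 and mutant replicate 3).

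Within single arrays, the brighter probe sets of mek-2 and mpk-1 were lower relative to their dimmer ones in the mutant. For mek-2 the log2 ratio of 191728_at to 188244_s_at was 0.81, 0.91 and 1.11 in mutant replicates 1, 2 and 3 and 1.44, 1.24 and 1.24 in N2 replicates 1, 2 and 3. For mpk-1 the log2 ratio of 175613_at to 193948_s_at was 2.62, 2.69 and 2.43 in the mutant, against 3.21, 2.84 and 2.97 in N2. The groups did not overlap in either ratio. They overlapped for the other 5 of the 7 genes with a pair of probe sets, which were ark-1, sos-1, let-60, lin-45 and lin-1. How often such ratios lie apart over all genes with several probe sets was not counted. Both ratios also reuse the values of 191728_at and 175613_at, whose groups already lay apart. Such a ratio shows that the probe sets of a gene differed unequally, not which of them follows the transcript.

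The ETS factor gene lin-1, which holds back vulval fates until MPK-1 phosphorylates its product, had the highest residual SD of the 17 probe sets on 175607_s_at. That probe set gave 1137.62, 2524.34 and 3361.34 in mutant replicates 1, 2 and 3, against 2856.33, 3181.60 and 2159.36 in N2 replicates 1, 2 and 3. The lowest and the highest arrays were both mutant, and the residual SD was 0.60 on the log2 scale, where the median of all probe sets was 0.25. The log2 SD was 0.80 over mutant replicates and 0.29 over N2 replicates. The log2 fold change was -0.34 (-1.28 to 0.60), 0.11 without mutant replicate 1 and -0.66 without mutant replicate 3. On 173446_s_at the mutant had 482.81, 792.34 and 701.23 and N2 had 527.61, 830.37 and 568.98, with a log2 fold change of 0.035 (-0.57 to 0.64), or -0.15 without mutant replicate 3 and N2 replicate 1. Mutant replicate 1 was the lowest array on both lin-1 probe sets.

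**Figure D2:**
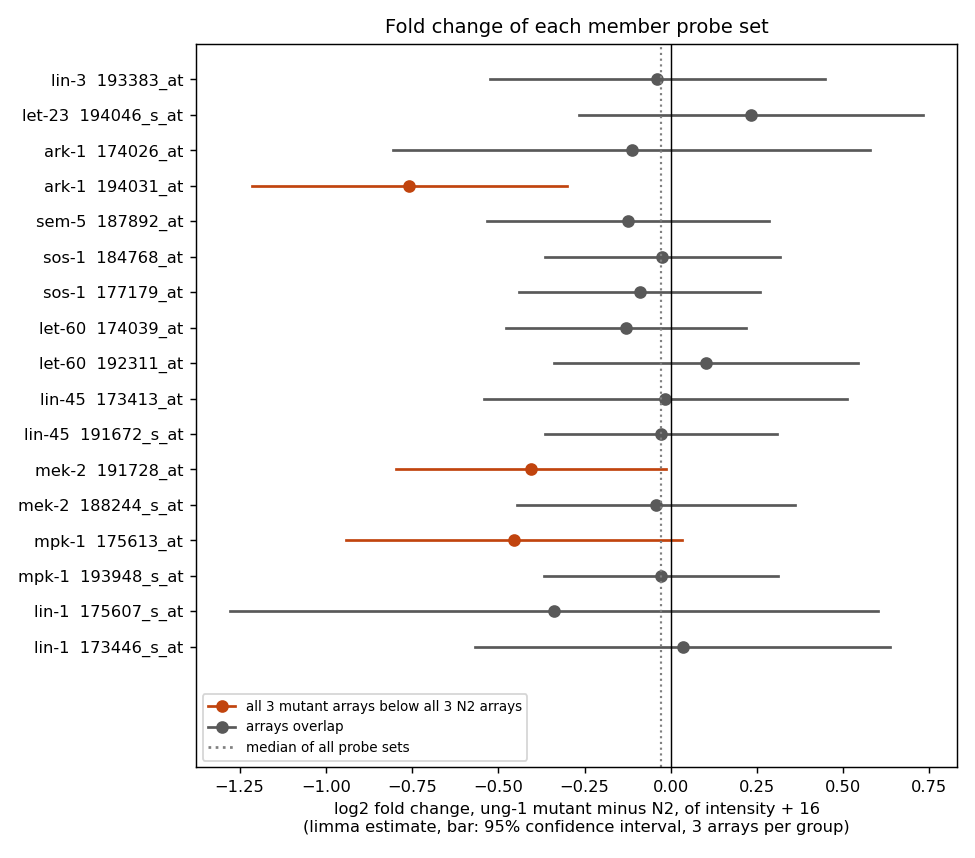
Log2 fold change, ung-1 mutant minus N2, of intensity + 16 for each of the 17 member probe sets (points, limma estimates) with 95% confidence intervals (bars), in the order ligand, receptor, inhibitor, adaptor, exchange factor, Ras, kinases and nuclear target. The dotted line marks the median of all 22548 probe sets at -0.027, and 15 of the 17 intervals contain 0, the exceptions being ark-1 on 194031_at and mek-2 on 191728_at.

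Over the 17 probe sets, 14 log2 fold changes were negative and 3 positive, with a median of -0.042. Without mutant replicate 3 and N2 replicate 1 together, 9 were negative and 8 positive. Over all 22548 probe sets, 12520 were negative and 10028 positive, with a median of -0.027. The split of the members depended on the scaling between arrays, with 9 negative and 8 positive after quantile normalization (median -0.00080) and 8 negative and 9 positive after median centring (0.00072). Groups lying apart remained on 2 member probe sets under each of these scalings, those of ark-1 (194031_at) and mek-2 (191728_at). Lower in the mutant and apart were then 3.46% of all probe sets after quantile normalization and 3.05% after median centring.

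**Figure D3:**
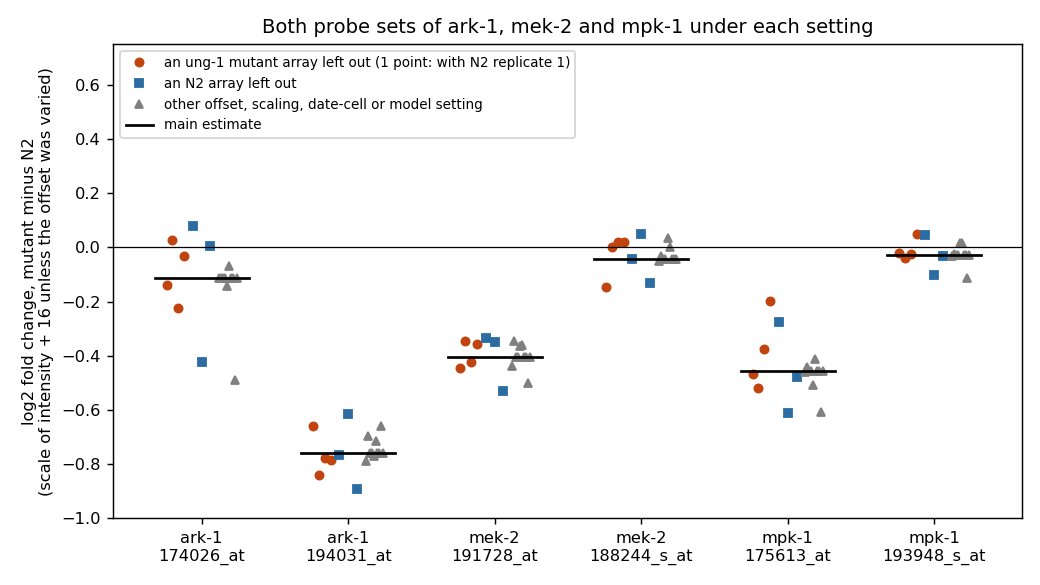
Log2 fold change, mutant minus N2, of both probe sets of ark-1, mek-2 and mpk-1 (columns) in the fit reported above (black lines) and under each alternative: a mutant array left out (circles, 1 of them with N2 replicate 1 left out too), an N2 array left out (squares), or another offset, scaling, treatment of date cells or model (triangles). The estimates of ark-1 on 194031_at stay between -0.89 and -0.62, those of mek-2 on 191728_at between -0.53 and -0.34 and those of mpk-1 on 175613_at between -0.61 and -0.20, while each gene's other probe set gave values on both sides of 0.

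Marker genes of other cell types and RNA quality controls overlapped between the genotypes in every summed level or ratio given here, and no marker passed the test. Single markers did lie apart by their brightest probe set. These were 2 of the 13 oocyte and germline markers, lower in the mutant, and 1 of the 8 hypodermis and cuticle markers, higher. Over all 17118 genes, 763 lay apart in the lower direction and 334 in the higher. Markers of oocytes and the hermaphrodite germline, all 13 of 13 measured, had summed intensities of 42585 to 72389 on mutant arrays and 56785 to 77910 on N2 arrays, with 11 of 13 genes negative and a median log2 fold change of -0.20. None of these markers was at 0, the lowest value being 495.81. Sperm markers, with 13 of 15 measured and the lowest value at 35.25, had sums of 6169 to 17518 on mutant arrays and 6482 to 13679 on N2 arrays. Of these 13 genes, 11 were positive and 2 negative, with a median log2 fold change of 0.070. Vulval markers, all 6 of 6 measured and down to 39.23, had sums of 1280 to 2192 on mutant arrays and 1251 to 1971 on N2 arrays. Of them 3 were positive and 3 negative, with a median of 0.013. Markers of hypodermis and cuticle, with 8 of 10 measured and the lowest value at 95.48, had sums of 22015 to 29834 on mutant arrays and 16992 to 23741 on N2 arrays, with 7 of 8 genes positive and a median log2 fold change of 0.28. Yolk and intestine markers, with 7 of 8 measured and the lowest value at 419.55, had sums of 35068 to 85785 on mutant arrays and 68047 to 83803 on N2 arrays, with 6 of 7 genes negative and a median of -0.13. Body wall muscle markers (5 of 5 measured) had 3 positive and 2 negative genes and a median of 0.0058. Neuron markers (7 of 7 measured) had 1 positive and 6 negative genes and a median of -0.059. The 3′ to 5′ ratio of the array's GAPDH control, a sign of RNA integrity, was 8.77, 5.01 and 6.08 in mutant replicates 1, 2 and 3, against 11.8, 8.30 and 10.6 in N2 replicates 1, 2 and 3. For ubiquitin it ran from 3.95 to 4.41 in the mutant and from 4.28 to 5.32 in N2, and for actin from 2.89 to 4.44 in the mutant and from 3.72 to 5.23 in N2. The part of cell type content or RNA integrity in the values of ark-1, mek-2 and mpk-1 was not tested.

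Genes that act around this core were taken as 9 lists, with 74 of 78 genes measured on 131 probe sets. None passed the test (limma adjusted p = 0.999 at the smallest), and 3 of the 131 had an unadjusted p under 0.05. By the brightest probe set of each gene, 31 were positive and 43 negative with a median log2 fold change of -0.061, where all 17118 genes had 7138 positive and 9980 negative with a median of -0.040. On 5 probe sets all mutant arrays lay below all N2 arrays and on 5 above, where 4.38% of all probe sets on the array lay below and 6.69% lay apart either way. These 10 of 131 are close to the share of the whole array. With 1 array left out the median of these genes ran from -0.12 without mutant replicate 3 to 0.014 without mutant replicate 2.

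Among negative regulators, with 11 of 13 measured, 4 genes were positive and 7 negative, with a median log2 fold change of -0.13. The gene dpy-23, for the medium chain of the AP-2 clathrin adaptor that serves endocytosis, gave 993.76, 1151.94 and 1080.78 on 175784_at in mutant replicates 1, 2 and 3. In N2 replicates 1, 2 and 3 it gave 2004.76, 1209.40 and 1562.95, so that the groups lay apart (log2 fold change -0.53, SE 0.21). Its other probe set, 193254_s_at, had -0.046. The gene unc-101, for the medium chain of the AP-1 adaptor, had 33.97, 37.65 and 40.68 on 193333_at in the mutant and 63.95, 67.87 and 48.35 in N2 (-0.50, SE 0.16). All mutant arrays again lay below all N2 arrays. The brightest probe set of unc-101, 175563_at, had -0.25 (SE 0.16) and 193334_s_at had 0.030 (SE 0.15), both with overlapping arrays. These differences of dpy-23 and unc-101 did not pass (limma adjusted p = 0.999 each).

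Positive regulators and scaffolds, with 11 of 11 measured, held 5 positive and 6 negative genes and a median of -0.025. The gene let-92, for the catalytic subunit of protein phosphatase 2A, gave 1282.77, 1672.51 and 1214.75 on 174899_at in mutant replicates 1, 2 and 3, against 985.25, 904.79 and 1149.46 in N2 replicates 1, 2 and 3. Here all mutant arrays lay above all N2 arrays (log2 fold change 0.44, SE 0.18), which did not pass. Its other probe set, 192750_at, had 0.17 (SE 0.14) with overlapping arrays. The phosphatase's regulatory subunit gene sur-6 had -0.14 (SE 0.18) on its brighter probe set and 0.058 (SE 0.20) on the other. The kinase gene par-1 was counted in this list although it is not a positive regulator of the pathway. It had -0.28 (SE 0.20) on its brighter probe set and 0.023 (SE 0.15) on the other. The arrays overlapped on each probe set of sur-6 and par-1.

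Genes that repress lin-3 outside the anchor cell, the synthetic multivulva class, had 20 of 21 measured, 8 positive and 12 negative, with a median of -0.091. The gene lin-53, for an RbAp48-like histone chaperone, gave 3991.72, 3240.37 and 3567.43 on 173503_at in the mutant and 4767.33, 4341.00 and 4529.73 in N2 (log2 fold change -0.34, SE 0.15). All mutant arrays lay below all N2 arrays there. The other lin-53 probe set, 193888_s_at, had 0.23 (SE 0.22) with overlapping arrays. The histone deacetylase gene hda-1 had 0.31 (SE 0.16), with all mutant arrays above all N2 arrays. The histone methyltransferase gene met-2 had 0.30 (SE 0.16) with overlapping arrays. These values of hda-1 and met-2 did not pass either. Their dimmer probe sets had 0.048 (SE 0.20) and 0.18 (SE 0.23). The members of this list thus went both ways, and lin-53 did so between its own probe sets.

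The 6 remaining lists had medians between -0.12 and 0.069. Nuclear effectors had 4 positive and 4 negative genes of 9 listed, with -0.52 (SE 0.27) for the Pax gene egl-38 and 0.30 (SE 0.22) for the zinc finger gene eor-1. The bHLH gene hlh-2 had 0.19 (SE 0.19) on 193176_s_at but -0.18 (SE 0.21) on its brighter probe set, 173461_at. Among lateral signal genes, 2 were positive and 4 negative, and lag-2, which encodes a Notch ligand, gave 94.19, 157.90 and 78.58 in mutant replicates 1, 2 and 3, against 210.70, 278.48 and 105.52 in N2 replicates 1, 2 and 3. These lag-2 arrays overlapped (log2 fold change -0.72, SE 0.37). Receptor localisation and ligand release had 2 positive and 3 negative genes. The gene erm-1, for an ezrin-like protein, had 0.42 (SE 0.21) on 189677_s_at, with all mutant arrays above all N2 arrays. Its brighter probe set had 0.024 (SE 0.18) with overlapping arrays.

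In the inositol trisphosphate branch of LET-23 signalling, which serves ovulation, 3 genes were positive and 1 negative. The receptor gene itr-1 had 0.39 (SE 0.36) on its brightest probe set, and -0.19 (SE 0.18), -0.087 (SE 0.21) and 0.040 (SE 0.17) on the others. The fibroblast growth factor branch had 2 positive and 2 negative genes, with -0.33 (SE 0.21) for the ligand gene let-756. The Ral and Rap branch had 1 positive and 4 negative genes, and rap-1 had 0.18 (SE 0.14) on 190315_at but -0.091 (SE 0.17) on its brighter probe set. None of these values passed. The arrays overlapped for itr-1 and let-756, while for rap-1 on 190315_at all mutant arrays lay above all N2 arrays.

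**Figure D4:**
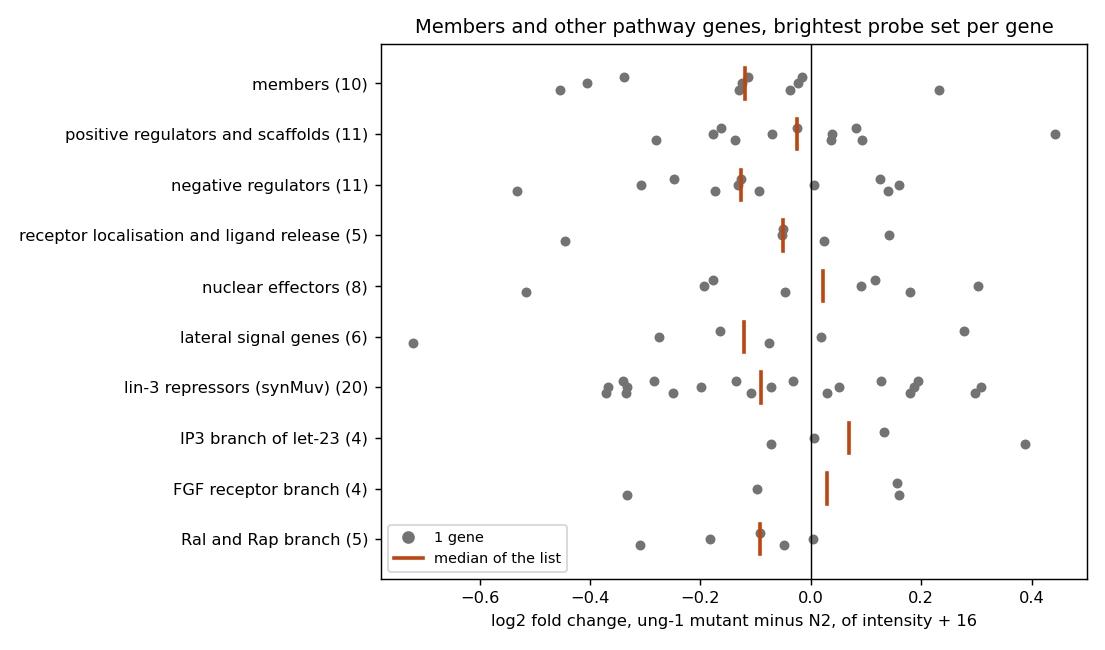
Log2 fold change, ung-1 mutant minus N2, of intensity + 16 for the 10 members and for the genes of 9 other pathway lists, by the brightest probe set of each gene (points), with the number of genes in brackets and the list medians as bars. The medians lie between -0.13 for negative regulators and 0.069 for the inositol trisphosphate branch, and every list has genes on both sides of 0.

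Genes whose profile over the 6 arrays was most like that of the brightest ark-1 probe set were found by the root mean square distance of log2 values centred on their mean. They were znfx-1, at a distance of 0.086, ztf-6 (0.088), M01E5.3 (0.105), C41D11.3 (0.110) and noca-2 (0.111). Each of them had its lowest array in N2 replicate 2, as ark-1 did on 174026_at, and a log2 fold change between -0.19 and -0.0098. Both traits follow from picking the genes by their likeness to that profile. Among the members, lin-45 on 173413_at was nearest to that ark-1 profile, at 0.183. The profile of 194031_at, a probe set chosen for this after its values were seen, was nearest to Y82E9BL.2 (0.098), clh-4 (0.105), F41D3.9 (0.106), srh-220 (0.109) and K01B6.3 (0.110), and among the members to mek-2 on 191728_at (0.257). The ark-1 probe sets themselves had unlike profiles, so a gene this near to both could not occur. That the first 5 of each shared no gene therefore adds nothing beyond that difference.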

How the data were processed

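Total RNA of 3 ung-1 mutant and 3 wild type N2 samples was isolated with Trizol, and biotin-labelled target was hybridised to C. elegans arrays made by Affymetrix, per the labels' protocols. The deposited table holds 1 linear intensity per probe set and array. How the authors summarised, background-corrected and scaled these intensities is not stated in any label or header. Of its values, 1361 whole numbers matched spreadsheet dates and were read back as the small decimals that such dates stand for. None of the 102 member values was among them. After 77 control probe sets were left out, log2(intensity + 16) of 22548 probe sets was fitted with limma 3.58.1 in R 4.3.3 (two-sided, Benjamini-Hochberg adjustment over all probe sets, threshold 0.05). Tested on simulated data, the fit called only part of the changes put in at this threshold. A difference that did not pass may therefore still be real.

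Probe sets were named from the platform annotation where it gave a single symbol. RefSeq gene identifiers (WBcel235) changed 0 symbols. The members and lists were chosen with earlier results of these data known. Named genes were all members, ung-1, the probe set of smallest p in each other pathway list (and the next 2 genes in lists of over 8) and the 5 profiles nearest to ark-1 among 15857 probe sets above the 25th percentile of mean intensity. The alternatives were other offsets, scalings and variance models, other treatments of date cells and dim probe sets, and arrays left out. Further probe sets of named genes and markers of other cell types were added as context. The number of arrays limits the precision, and p-values set a difference only against the spread between these samples.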

Additional observations from a re-analysis of the deposited data

How the results depend on the processing

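Each of the 17 member probe sets was refitted under 17 alternatives, 16 for mek-2 on 188244_s_at, which the filter on dim probe sets removes. All 288 estimates lay within 1 residual SD of the reported one. Some alternatives could not move a member's estimate, namely the date-cell treatments, the filter on dim probe sets, the intensity trend and the replicate block. The bar was also wide where arrays scattered: ark-1 on 174026_at, with a residual SD of 0.42, moved from -0.11 to -0.49 with array weights. With 1 array left out, ark-1 ran from -0.89 to -0.62 on 194031_at and from -0.42 to 0.078 on 174026_at, and the median of the members from -0.11 to -0.026. Medians of 3 other pathway lists moved beyond their spread. Lateral signal genes (-0.12) gave -0.22 without mutant replicate 1, 0.028 without mutant replicate 2, -0.21 without mutant replicate 3 and N2 replicate 1, and -0.22 without probe sets marked as shared. Receptor localisation (-0.050) gave -0.45 without mutant replicate 3, and the FGF branch (0.029) gave -0.21 with array weights. Leaving out mutant replicate 3 and N2 replicate 1 together was chosen after seeing the data.

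The count of probe sets past the adjusted threshold was 0 as reported, 6 with the values as deposited, 1 when the prior variance followed intensity, 1 when arrays were weighted, and 0 in every other setting run. In these 3 settings ung-1 passed, at log2 fold changes of -2.01 (adjusted p = 0.0276), -2.01 (adjusted p = 0.0118) and -1.93 (adjusted p = 0.0392), and over all settings its adjusted p ran from 0.0118 to 0.9996. No date number lay in a member cell, and the members' estimates were the same with values as deposited. The shared replicate numbers were not taken as pairs. Deviations of same-numbered arrays from their group means correlated at -0.19, 0.090 and 0.10, and not every array correlated best with its own number. With 3 arrays in a group such deviations sum to 0, so this check cannot exclude a shared culture or batch. With the replicate block the count was 0 and ung-1 stood at -2.01 (adjusted p = 0.9996). Signal over background is unknown here, so dim probe sets may understate a change.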

Other observations

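Disagreement between probe sets of a gene was also seen outside the members. The sorting nexin gene lst-4, a negative regulator, had all mutant arrays below all N2 arrays on 185377_at, with 78.83, 72.73 and 60.26 in mutant replicates 1, 2 and 3, against 103.30, 129.08 and 80.39 in N2 replicates 1, 2 and 3. Its log2 fold change was -0.46 (SE 0.19) there, 0.42 (SE 0.19) on 193871_s_at, 0.28 (SE 0.17) on 190482_s_at and 0.12 (SE 0.15) on 173958_at, its brightest probe set. Groups also lay apart in genes picked after their values were seen, for lin-15A on 191285_at (-0.28, SE 0.16) and for plc-3, a phospholipase C gene of the ovulation branch, on 193917_at (0.13, SE 0.14). None of these passed (limma adjusted p = 0.999 each).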
